A study of Glycine max with 5 samples.

Results

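The 3 genes described here, LOC100306092, LOC547794 and NIP1-8, belong to the aquaporins, the membrane channels through which plant cells pass water and small uncharged solutes. LOC100306092 carries the synonyms GmTIP2;3 and GmTIP2;5, LOC547794 the synonym GmTIP1;6 and NIP1-8 the synonym GmNIP1;3. They were chosen by gene: every probe set that the platform's probe-to-gene table pairs with 1 of these genes and with no other was taken. This gave 7 of the 37593 probe sets on the array, and 3 of the 6029 genes that have such a probe set. LOC100306092 and LOC547794 had 3 probe sets each and NIP1-8 had 1.

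RNA came from soybean (Glycine max, genotype Bragg) seedlings that were 10 days old, and both groups shared genotype, age and growth conditions, with no transgene or agent named. The root meristem group held 3 arrays of dissected root tips of 0.5 mm, labelled root apical meristem. The non-meristematic group held 2 arrays, labelled leaf in the tissue field, whereas the protocol speaks of the other parts of the seedling. The free-text descriptions of all 5 samples name embryo stages, against the titles and tissue fields, and the groups used here rest on the titles. The stated question was which genes are enriched in the root meristem, and the titles call all 5 samples biological replicates without saying whether plants were pooled, so that the p-values reflect only how far these samples spread.

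Aquaporins fall into subfamilies. Tonoplast intrinsic proteins (TIPs) sit mainly in the membrane of the vacuole and let water move between the vacuole and the cytosol; in Arabidopsis, members of the TIP2 group also conduct ammonia. Nodulin 26-like intrinsic proteins (NIPs) are named after nodulin 26 of the soybean root nodule and conduct glycerol, other small uncharged solutes and, for some members, water. Plasma membrane intrinsic proteins (PIPs) and small basic intrinsic proteins (SIPs) are further subfamilies. Dividing cells of a root tip hold small vacuoles, and expanded cells hold a large central one.

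Values are MAS5 signals, the Affymetrix summary of the probe pairs of a probe set, on a linear scale. Background was taken as the 25th percentile of an array's signals, which came to 17.9 to 22.5 in root meristem, 37 on non-meristematic array 1 and 26.3 on array 2. Testing was limited to probe sets with 2 or more arrays above background. A probe set was called when limma's adjusted p, taken over all 30941 probe sets tested, was below 0.05 and the log2 difference, root meristem minus non-meristematic tissue, was at least 1 in size. Across probe sets, arrays of 1 group had Spearman correlations of at least 0.871 and arrays of different groups of at most 0.626. The small number of arrays limits the precision, and array signals carry no count of molecules. Over all probe sets 4452 were called higher and 5608 lower in root meristem, and quantile normalization turned this split into 5719 and 4717, median centring into 6574 and 4948.

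The labels were set against marker genes. The root tip marker PIN2A, an auxin efflux carrier gene, lay between 1739.5 and 2400.5 on the root meristem arrays, against 26.1 and 25.2, below background, on the non-meristematic arrays. Both markers of dividing cells, H4 and LOC548079 (PCNA), were called higher in root meristem, and their summed signal was 3576 to 4462 there and 1028 to 1348 in non-meristematic tissue. Of 7 green leaf markers 6 were called lower in root meristem, while 1, PSAD, was not called (log2 0.67); their summed signal was 5237 to 5601 in root meristem, most of it from PSAD, and 36975 to 40698 in non-meristematic tissue. Of the 4 phloem markers, all genes of the sieve element occlusion family, 4 were called lower, with a summed signal of 261.5 to 458.1 against 4374 to 4668. The VSPA probe set of the leaf list and that of H4 share a design cluster number, so that their assignment is uncertain. The 4 seed maturation markers were all called higher, with a summed signal of 3836 to 11222 in root meristem, highest on array 1 and lowest on array 3, against 43.5 to 72.1. None of these markers stood at 0 on any array. These lists thus moved with the same contrast as the aquaporin genes below, and their part in those results was not tested. Fewer cells of a type and less RNA per cell cannot be told apart in such samples, and organ and dividing state cannot be told apart in this contrast.

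All 3 genes were lower in root meristem. NIP1-8 was at least 59.3-fold lower with background at the 25th percentile, and at least 24.2-fold with background at the 40th percentile. LOC100306092 was lower by 5.51 and 8.13 times on its 2 bright probe sets, and LOC547794 was lower by 2.59 and 2.91 times on the 2 of its probe sets that could be tested. Of the 7 probe sets 6 were tested and 6 were called lower, against 18.1% of all probe sets tested. On each of the 6, every root meristem array lay below both non-meristematic arrays, a pattern that 29.6% of all probe sets tested showed. Of the 6, 4 were above background on all 5 arrays. NIP1-8 entered the test through its non-meristematic arrays alone, so that only a lower signal in root meristem was possible for it. Another probe set, of LOC100306092, entered through the non-meristematic arrays and 1 root meristem array. The 6 probe sets stand for 3 genes chosen with earlier results of these data known, so these counts describe them and test nothing.

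**Figure D1:**
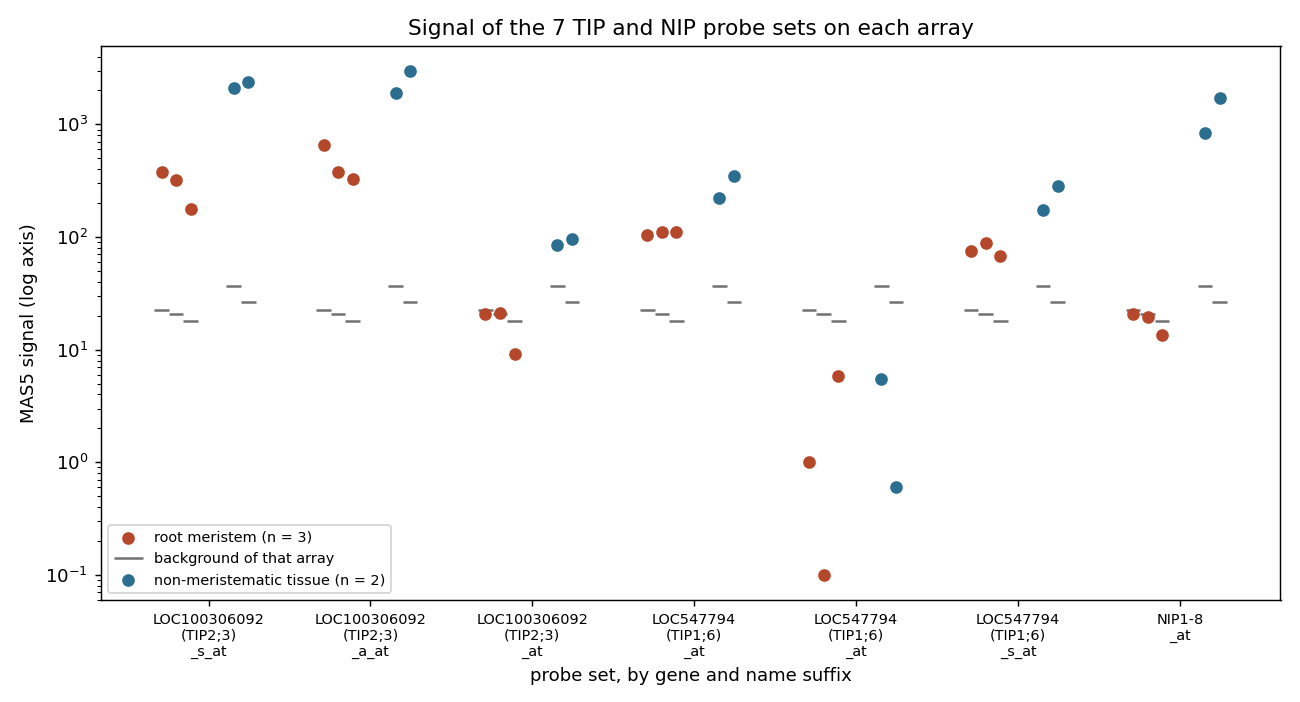
MAS5 signal (log axis) of the 7 probe sets of LOC100306092, LOC547794 and NIP1-8, with 1 point per array: 3 root meristem arrays on the left and 2 non-meristematic arrays on the right of each pair, and a grey bar at the background of that array. The groups do not overlap on 6 probe sets, NIP1-8 lies at 13.4 to 20.8 in root meristem against 843.5 and 1715.6 in non-meristematic tissue, and all 5 points of the unmarked GmaAffx probe set of LOC547794 lie below background.

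LOC100306092, the TIP2 gene, was measured well above background in both groups on 2 of its probe sets. Its brightest, Gma.11324.2.S1_a_at, had signals of 652.8, 375.6 and 329.4 on root meristem arrays 1, 2 and 3, against 1910.1 and 2971.2 on non-meristematic arrays 1 and 2. The highest root meristem value thus lay below the lower non-meristematic one, while the values within each group were themselves spread. The means were 452.6 ± 175 in root meristem, against 2441 ± 750 in non-meristematic tissue (SD, n = 3 and n = 2). The log2 difference was -2.46 ± 0.35 (SE; 95% interval -3.29 to -1.63; limma adjusted p = 0.00235), or 5.51-fold lower in root meristem.

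The second probe set of this gene, Gma.11324.1.A1_s_at, had signals of 374.6, 320.2 and 177 on the root meristem arrays, against 2110.2 and 2399.1 on the non-meristematic arrays. Root meristem array 3 was again the lowest and array 1 the highest of its group, and the groups were far apart. The log2 difference was -3.02 ± 0.34 (95% interval -3.83 to -2.22; limma adjusted p = 0.000954), or 8.13-fold lower. Its suffix, _s_at, marks probes that can hybridize to more than 1 transcript, so its signal may be shared with close relatives; the suffix _a_at of the brightest probe set stands for transcripts of 1 gene.

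The third probe set, Gma.11324.2.S1_at, carries no mark and was dim. It had 20.9, 21.1 and 9.2 in root meristem, of which 1 value was above background, against 84.5 and 95.7 in non-meristematic tissue. The non-meristematic values were close to each other and both above background. The log2 difference of -2.50 ± 0.51 (95% interval -3.70 to -1.29; limma adjusted p = 0.00899) rests in part on values below background. With those held at background the root meristem signal was at least 4.41-fold lower, and at least 1.81-fold with background at the 40th percentile, where no root meristem value was above it. The 3 probe sets of LOC100306092 had the same direction.

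LOC547794, the TIP1 gene, had the smallest difference of the 3 genes. Its probe set Gma.43.1.A1_at had signals of 104, 110 and 110.9 in root meristem, against 224.1 and 351.6 in non-meristematic tissue. The root meristem arrays were nearly equal, the highest being 1.07 times the lowest, whereas the non-meristematic arrays differed 1.57-fold. The log2 difference was -1.37 ± 0.27 (95% interval -2.03 to -0.72; limma adjusted p = 0.00847), or 2.59-fold lower.

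The marked probe set of LOC547794, GmaAffx.5414.1.S1_s_at, had 74.8, 89.2 and 67.9 in root meristem, against 175 and 285.6 in non-meristematic tissue. Again the groups did not overlap and non-meristematic array 2 was the higher. The log2 difference was -1.54 ± 0.31 (95% interval -2.28 to -0.81; limma adjusted p = 0.00854), or 2.91-fold lower. Both intervals reach below a log2 size of 1, and neither probe set passed when the test was made against a difference of 1 (limma treat, adjusted p = 0.437 and 0.284). The remaining probe set, GmaAffx.5414.1.S1_at, lay between 0.1 and 5.8 on the root meristem arrays, against 5.5 and 0.6 on the non-meristematic arrays, below background on all 5, and was not tested.

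Of the 3 genes, NIP1-8 had the widest gap between the groups. Its 1 probe set, Gma.15715.1.S1_at, had 20.8, 19.4 and 13.4 in root meristem, each below the background of its array, against 843.5 and 1715.6 in non-meristematic tissue. The NIP1-8 signal was thus well above background in non-meristematic tissue, where array 2 was 2.03 times array 1, and not above background in root meristem. The means were 17.9 ± 3.9 in root meristem, against 1280 ± 617 in non-meristematic tissue (SD, n = 3 and n = 2). With each root meristem array held at its background NIP1-8 was at least 59.3-fold lower. This limit depends on the background chosen: with the 40th percentile, 44.8 to 52.6 on the root meristem arrays, it was at least 24.2-fold. No test was made of the limit itself. The limma test (adjusted p = 0.000126) used the signals as they stood, so its root meristem values were all below background. NIP1-8 entered that test through its non-meristematic arrays alone, so only a lower call was possible and the p-value adds no support. The probe set carries no mark of cross-hybridization.

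Among the 23185 probe sets above background on all 5 arrays, 2.53% had a more negative difference than Gma.11324.1.A1_s_at and 4.11% than Gma.11324.2.S1_a_at of LOC100306092. For LOC547794 the shares were 10.5% for Gma.43.1.A1_at and 8.95% for GmaAffx.5414.1.S1_s_at. NIP1-8 and the dim probe set of LOC100306092 were left out of this ordering because values below background have no order.

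The non-meristematic arrays differed from each other in 1 direction on the tested probe sets of the 3 genes. On these 6 probe sets array 2 was higher than array 1 by 1.13 to 2.03 times, with the largest ratio for NIP1-8. Over the 23185 probe sets above background on all arrays the median of this ratio was 1.10, and 59.1% were higher on array 2. The summed phloem markers had a ratio of 0.937 and the green leaf markers 0.909, but members of both lists went either way: PETC (1.43), ATPC (1.23), VSPA (1.20) and PSAD (1.12) of the leaf list and SEOC (1.65) of the phloem list were higher on array 2. Within root meristem, the highest over the lowest array was 2.12 and 1.98 for the 2 bright probe sets of LOC100306092 and 1.07 and 1.31 for the 2 of LOC547794. The median over the 23185 probe sets was 1.33. The dim probe set of LOC100306092 was left out here, since not all its root meristem values were above background.

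Whether the 3 genes fell to unequal extents was examined with ratios within an array, taken between the brightest probe sets of each pair of genes and with signals below background held at it. A ratio of this kind holds no comparison of levels between genes; only its change between groups does. The log2 ratio of LOC100306092 over LOC547794 was 2.65, 1.77 and 1.57 on the root meristem arrays, against 3.09 and 3.08 on the non-meristematic arrays. The groups did not overlap, and the difference of means was -1.09. For LOC100306092 over NIP1-8 the ratio was 4.86, 4.18 and 4.20 in root meristem, against 1.18 and 0.79 in non-meristematic tissue, a difference of 3.43. For LOC547794 over NIP1-8 it was 2.21, 2.41 and 2.63 in root meristem, against -1.91 and -2.29 in non-meristematic tissue, a difference of 4.52. Because NIP1-8 was held at background in root meristem, the differences that involve it are lower limits for the background chosen. With background at the 40th percentile they were 2.14 for LOC100306092 over NIP1-8 and 3.22 for LOC547794 over NIP1-8. Each of the 3 pairs had p = 0.2 in an exact two-sided permutation test (adjusted p = 0.2 over the 3 pairs), the smallest p that 3 against 2 arrays allow, so that no pair could pass the threshold.

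**Figure D2:**
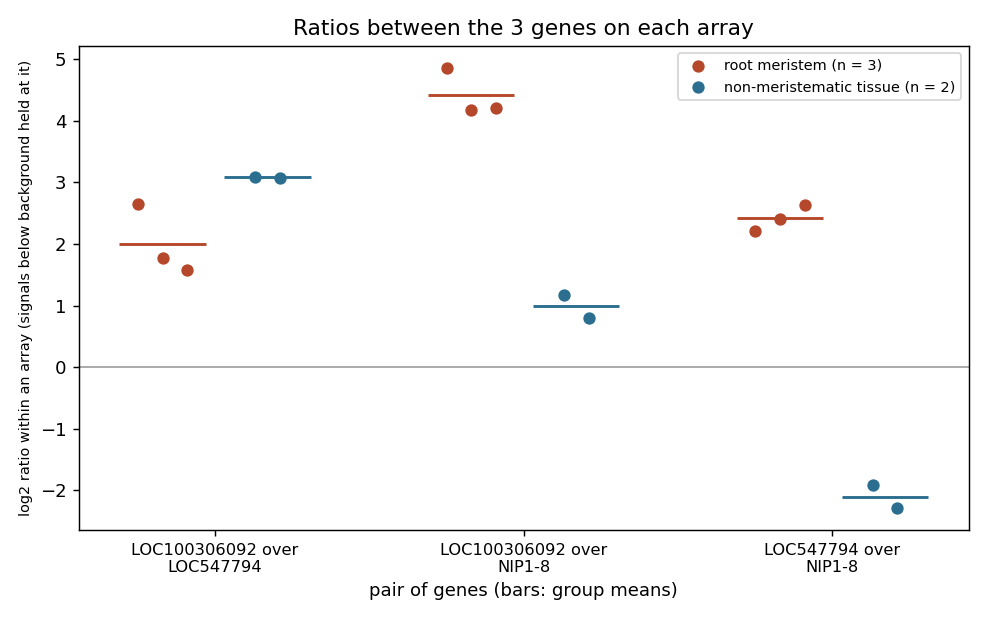
Log2 ratio between the brightest probe sets of 2 genes on each array (vertical axis; NIP1-8 held at background in root meristem) for the 3 pairs of genes, with root meristem arrays (n = 3) left of non-meristematic arrays (n = 2) and bars at the group means. The groups are apart in all 3 pairs: for LOC547794 over NIP1-8 the points lie at 2.21 to 2.63 in root meristem, against -1.91 and -2.29 in non-meristematic tissue.

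The other aquaporin genes on the array did not share one direction. A list of 20 further genes was drawn up by symbol and synonym, and 18 were tested, each by whichever of its probe sets had the highest log2 signal on average. Of these 3 were called lower and 1 higher in root meristem, and 14 were not called. Over all 5650 genes tested, 21.0% were called lower and 18.6% higher. The median log2 difference of the 18 genes was 0.06, against 0.20 over all genes tested. The gene table names 11 protein-coding TIP genes and 16 NIP genes, of which the single-gene probe sets stand for 3 each, so that these subfamilies were seen only in part.

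**Figure D3:**
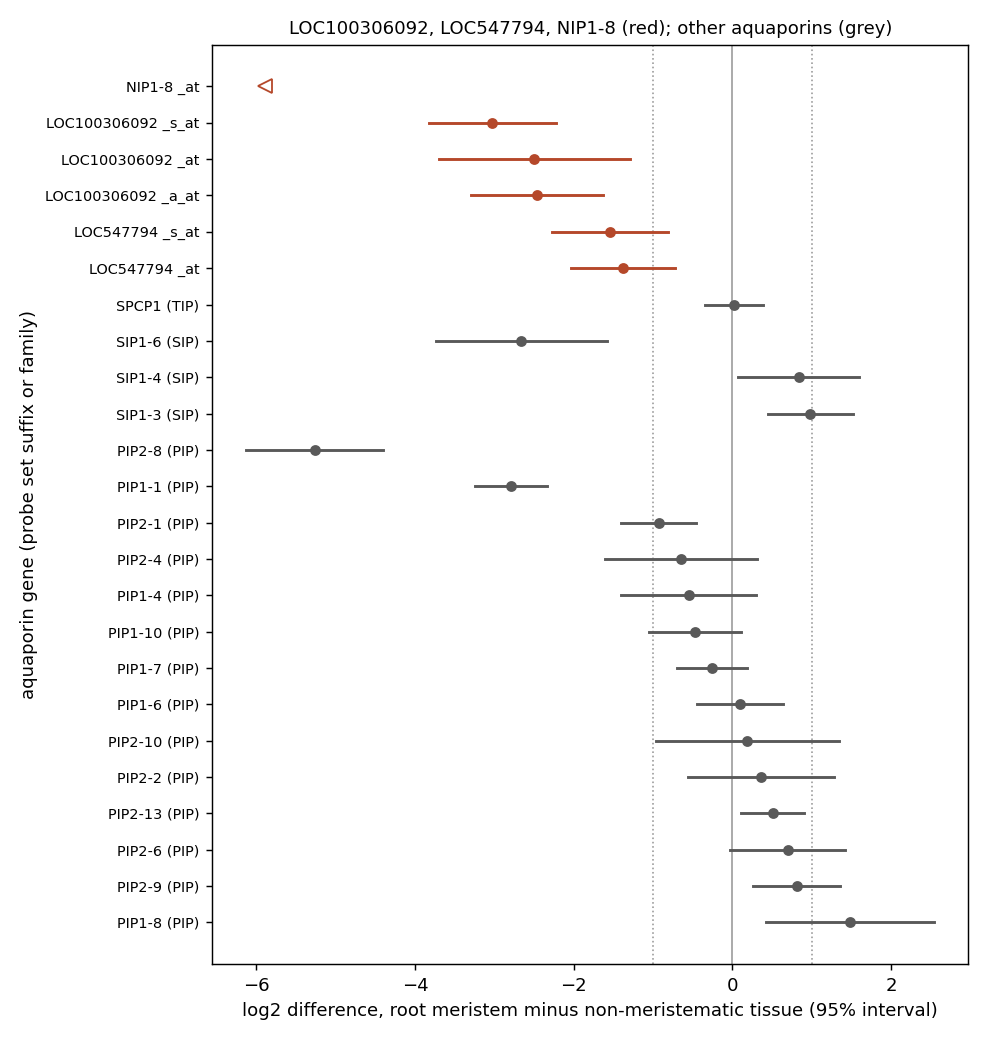
Log2 difference, root meristem minus non-meristematic tissue, with its 95% interval from limma (horizontal axis) for the 6 tested probe sets of LOC100306092, LOC547794 and NIP1-8 (red) and for 18 other aquaporin genes (grey); dotted lines mark a log2 size of 1. With background at the 25th percentile the limit for NIP1-8 (open triangle) lies at -5.89 or further left. The other red points lie between -3.02 and -1.37, SPCP1 lies at 0.02, and of the grey points PIP2-8, PIP1-1 and SIP1-6 lie between -5.26 and -2.66.

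SPCP1, with the synonyms GmTIP1;3 and GmTIP1;7, was the only other TIP gene with a single-gene probe set, and its difference was near 0. Its probe set Gma.6664.1.S1_s_at had 9931.9, 9049.4 and 8384.2 in root meristem, against 7863.7 and 10267 in non-meristematic tissue. The groups overlapped, with both extremes of the 5 values in non-meristematic tissue. The log2 difference was 0.02 ± 0.15 (limma adjusted p = 0.937), and its 95% interval of -0.34 to 0.38 did not overlap the intervals of either tested LOC547794 probe set; the difference between SPCP1 and LOC547794 itself was not tested.

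Further bright probe sets of SPCP1 were not called either. Gma.6664.2.S1_at had a log2 difference of 0.10 ± 0.13, GmaAffx.92105.1.S1_s_at of 0.01 ± 0.16 and GmaAffx.89113.1.S1_x_at of 0.27 ± 0.16, and none of the 3 passed. The dim GmaAffx.89113.1.A1_at had 35, 34.8 and 32.4 in root meristem, against 8.1 and 17.4, both below background, in non-meristematic tissue; it was not called either (limma adjusted p = 0.0584). Gma.16829.1.A1_s_at, which the probe table gives the symbol SPCP1 under another Entrez number, had a log2 difference of 0.39 ± 0.32.

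The 2 other NIP genes with a single-gene probe set could not be tested. N-26, the gene of nodulin 26 itself (GmNIP1;5), had 10.3, 2.4 and 13 in root meristem, against 32.3 and 16.4 in non-meristematic tissue. NIP2-2 had 0.6, 1.2 and 0.9 in root meristem, against 5.8 and 3.8 in non-meristematic tissue. Both genes were below background on all 5 arrays, so that of the 3 NIP genes with a single-gene probe set NIP1-8 alone had a signal above background.

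Among the PIP and SIP genes PIP2-8 had the widest gap between the groups. It had 50, 51.9 and 87.3 in root meristem against 1784.3 and 3075.7 in non-meristematic tissue on its marked probe set (log2 -5.26 ± 0.36, limma adjusted p = 0.000153). Its unmarked probe set had 27.8, 5 and 28.8 in root meristem, the value of 5 being below background, against 2815.3 and 4965.6. The log2 difference there was -7.88 ± 0.78 (limma adjusted p = 0.000608). PIP1-1, with 222.4, 232.4 and 217.8 against 1454 and 1657.7, had a log2 difference of -2.79 ± 0.19, and SIP1-6, with 71.1, 58.9 and 57.7 against 669.2 and 231.2, one of -2.66 ± 0.45. SIP1-6 thus had its higher non-meristematic value on array 1, the reverse of the 6 tested probe sets of LOC100306092, LOC547794 and NIP1-8. By the probe sets that stood for the genes, PIP1-8 was the 1 gene called higher (log2 1.48 ± 0.44, limma adjusted p = 0.0369). Its call did not hold under 6 of 16 alternatives, which were quantile normalization, no trend in the variance model, the test against a log2 difference of 1, and leaving out root meristem array 1, root meristem array 2 or non-meristematic array 2. Without non-meristematic array 1 its log2 difference was 2.20, and without non-meristematic array 2 it was 0.76. The 11 PIP genes not called had log2 differences of -0.93 to 0.81 on the probe sets that stood for them. Some of their dimmer probe sets lay outside this range. Gma.14992.1.S1_at of PIP2-1 was called lower (log2 -1.31 ± 0.38, limma adjusted p = 0.0325), with 1 root meristem value below background. GmaAffx.89262.1.S1_at of PIP2-6 was called higher (log2 1.12 ± 0.33, limma adjusted p = 0.0341), and no other PIP2-6 probe set was called. GmaAffx.86594.2.S1_at of PIP1-7 (log2 -1.10 ± 0.45) was not called.

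Of the vacuolar pumps and carriers sought by symbol or synonym, 1 gene was found among the single-gene probe sets, NHX1, the vacuolar sodium/proton antiporter. The 28546 probe sets not listed with a gene could not be searched, so other such genes may be on the array. NHX1 had 1043.4, 1084.9 and 903 in root meristem against 826.4 and 994.5 in non-meristematic tissue. The groups overlapped, and the log2 difference was 0.15 ± 0.19 (95% interval -0.29 to 0.60; limma adjusted p = 0.554). Its 3 other probe sets had log2 differences of -0.18 to 0.63 and were not called.

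The named genes whose profile over the 5 arrays was most like each aquaporin gene were found by the Euclidean distance between log2 signals centred on the mean of each probe set. For LOC100306092 these were SEOC, a sieve element occlusion gene (distance 0.359), 4CL2, a 4-coumarate:CoA ligase gene of phenylpropanoid synthesis (0.373), and CRY2B, a cryptochrome gene (0.490). SEOC had 162.9, 77.2 and 58.9 in root meristem, against 365.7 and 602.1 in non-meristematic tissue, with root meristem array 1 highest and array 3 lowest, as in LOC100306092. For LOC547794 they were AOC6, an allene oxide cyclase gene of jasmonate synthesis (0.245), CYP10 (0.289) and EDS5 (0.314).

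For NIP1-8 the most like genes were F3H, a flavanone 3-hydroxylase gene (distance 0.758), VSPA, a vegetative storage protein gene (0.774), and ALDH2B4, an aldehyde dehydrogenase gene (0.802). VSPA had 47.7, 29.8 and 42.9 in root meristem, against 2185.8 and 4197.4 in non-meristematic tissue on this probe set. This VSPA probe set also shares its design cluster number with that of H4, so that its assignment is uncertain. Both it and the F3H probe set carry the suffix _s_at. The distances for NIP1-8 were larger, and its root meristem values, all below background, have no order. With 5 arrays in 2 groups such likeness rests mostly on the gap between the groups.

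LOC100306092 and LOC547794 kept their direction under every processing alternative in which their probe sets could be tested. NIP1-8, with no root meristem value above background, has only its limit, which was at least 84.6-fold without non-meristematic array 1 and at least 41.6-fold without non-meristematic array 2; no test of NIP1-8 could be made without either of these arrays. Both brighter probe sets of LOC100306092 kept their call under all 16, with ranges of -3.24 to -2.70 for Gma.11324.1.A1_s_at and -2.78 to -2.14 for Gma.11324.2.S1_a_at. The dim probe set of LOC100306092 and both of LOC547794 lost theirs under 1 alternative each, the test against a log2 difference of 1, which 9.28% of all probe sets tested passed as lower.

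**Figure D4:**
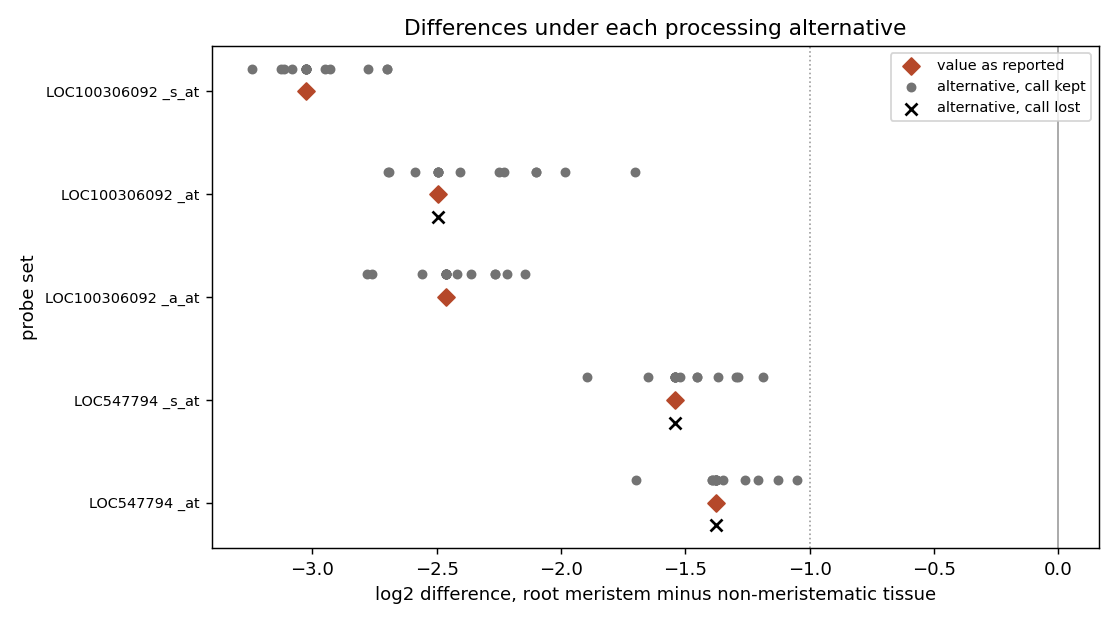
Log2 difference, root meristem minus non-meristematic tissue (horizontal axis), of the 5 tested probe sets of LOC100306092 and LOC547794 as reported (diamonds) and under each processing alternative (circles where the call was kept, crosses where it was lost). No point reaches 0; the crosses, 1 each for 3 probe sets, mark the test against a log2 difference of 1, which leaves the value itself unchanged.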

How the data were processed

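Gene expression was measured on 5 Affymetrix soybean arrays, 3 of root meristem and 2 of non-meristematic tissue, grouped by sample title. Each deposited table column holds linear signal intensities of 1 array made with MAS5, per the submitters' processing notes; how the authors scaled them, and the version used, is not given in the sources here. Values were raised to a floor of 0.1 and put on the log2 scale without rescaling. Groups were compared with limma 3.58.1 in R 4.3.3 (lmFit, eBayes with an intensity trend, 3 residual and 3.68 prior degrees of freedom), with Benjamini-Hochberg adjustment over all probe sets tested. The procedure was also run on simulated data whose spread was taken from the root meristem arrays alone. That run does not cover the spread between the non-meristematic arrays. A fold called "at least" holds dim arrays at their background where their signal is below it.

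Gene names are those of the platform annotation, brought up to date by Entrez number from RefSeq's gene table for Glycine_max_v4.0, of which no coordinates were used; 8652 of 8677 single-gene probe sets matched, 370 had several genes and 28546 were not listed. Named genes were all probe sets of LOC100306092, LOC547794 and NIP1-8, the other aquaporin and vacuolar carrier genes by symbol or synonym, and the 3 most like named genes each. The genes and lists were chosen with earlier results of these data known. Alternatives covered scaling, floor, filter, variance model, a replicate block and leaving out each array.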

Additional observations from a re-analysis of the deposited data

How the results depend on the processing

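For NIP1-8 only a negative difference was possible. The differences of the 6 tested probe sets and of PIP1-8 and the 3 ratios between genes kept their sign under the alternatives in which they had a value. The split over all probe sets did not: beside the scalings given above, it was 3367 higher and 3151 lower among probe sets above background on all 5 arrays, 5266 and 4192 without non-meristematic array 1, and 5364 and 4737 without non-meristematic array 2. Against a log2 difference of 1 (treat), the calls of Gma.11324.2.S1_at of LOC100306092 (log2 -2.50, adjusted p = 0.0755) and of Gma.43.1.A1_at (-1.37) and GmaAffx.5414.1.S1_s_at (-1.54) of LOC547794 were lost, and the counts over all probe sets were 1161 higher and 2871 lower. The count of other aquaporin genes called higher was 2 after quantile normalization, 4 after median centring, 0 without an intensity trend and 0 with treat, and 0 to 2 when 1 array was left out; the cause was not tested. Over all probe sets the median log2 difference was 0.30 after quantile normalization and 0.32 after median centring, against 0.07 as reported, and it was -0.03 with no filter. Leaving out 1 array gave 3428 to 5364 higher and 4192 to 4942 lower probe sets, and 3 to 4 aquaporin genes lower. NIP1-8 has no value without either non-meristematic array or with the filter on all arrays, and the dim LOC100306092 probe set none with that filter.

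The titles number replicates in both groups but say nothing of a shared batch, so the numbers were not taken as pairs. Deviations from the group means of same-numbered arrays had correlations of 0.0987 and -0.0888. The deviations of the 2 non-meristematic arrays mirror each other, so these values cannot decide whether a batch was shared. With the replicate block, in which root meristem array 3 has no partner, 3345 probe sets were higher and 4244 lower, 2 other aquaporin genes were higher, and all 6 probe sets of the 3 genes kept their call (log2 -2.70, -2.27 and -2.10 for LOC100306092, -1.39 and -1.45 for LOC547794).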
